A study of Arabidopsis thaliana with 4 samples.

Results

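The xyloglucan endotransglucosylases described here are 10 genes of the XTH family of Arabidopsis thaliana: XTH4, XTH5, XTH15, XTH16, XTH17, XTH18, XTH22, XTH23, XTH24 and XTH25. They were taken as the array features whose annotation starts with one of these 10 loci, and each locus was represented by 1 probe, out of 25665 loci on the array. Their transcript levels were compared between shoot apices of the mutant ron3 and of its control, the accession Ler (Landsberg erecta), which itself carries a mutation in the growth gene ERECTA, both grown in vitro to growth stage 1.02. RON3 (ROTUNDA3) is known as a leaf shape gene, and the labels name the mutant without an allele or further genotype. The study used 4 two-colour Agilent arrays, a to d, each with both genotypes hybridised together. On arrays a and c the Cy5 dye was on ron3, and on arrays b and d it was on Ler. Whether any of the arrays share plants or an RNA extract is not stated in the labels. The p-values therefore rest on the spread between these 4 arrays, part of which may be technical. That spread was taken after removal of a dye effect and was moderated over all genes tested. It thus differs from the SDs given here, which are those of the 4 array values.

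Xyloglucan is the main hemicellulose of the primary wall in this plant, where its chains coat and link cellulose microfibrils. Enzymes of the XTH family cut a xyloglucan chain and rejoin the cut end to another chain, so that the network can be loosened, extended or strengthened while cells grow, and a few members hydrolyse the chain instead. The genes respond to different signals: some are known from expanding tissue, some from roots, and XTH22 was first found as TCH4, a gene induced by touch.

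The genotype and tissue labels were checked first. SIC (AT4G24500), taken from general knowledge to be RON3, stood at a log2 ratio of −2.30 ± 0.08 in ron3 over Ler (SD, n = 4; limma, adjusted p = 0.000148). The share of gene probes that Feature Extraction marked as detected was 55.5% to 59.5% for ron3 and 54.2% to 57.0% for Ler, and 0 of the 10 spots of interest were flagged or saturated on any array. Of 8 shoot apex markers 6 were tested, of which 2 rose and 4 fell (37.0% and 32.8% over all genes tested). They ranged from ANT, a growth regulator of young organs, at −0.83 to STM, a homeobox gene of the meristem, at 0.40 on the log2 scale. CLV3 and WUS, which mark small groups of meristem cells, were not well above background on any array. The summed level of the 6, in which bright probes weigh most, was 8876 to 9624 intensity units in ron3 and 11290 to 11950 in Ler. In RNA from whole apices, fewer cells of a type and less RNA per cell cannot be told apart.

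The XTH genes did not move as a block. XTH23, XTH22 and XTH24 rose in ron3 by more than 2-fold in the mean of the arrays. XTH4, XTH16, XTH5 and XTH17 fell, and XTH15 and XTH18 did not pass the test. XTH22 was below 2-fold on arrays a and b, and the calls of XTH22 and XTH17 were lost under several other settings. XTH25 was too dim to be tested. Of 9 tested genes 7 were called (limma, Benjamini-Hochberg adjusted p below 0.05), 3 up and 4 down, where 69.8% of all 19246 genes tested were called, 37.0% up and 32.8% down. When arrays were only centred on their median, 4 were called up and 3 down. The called share is thus near the background. Of the 9 genes 4 were called at 2-fold or more, 3 up and 1 down. Of all genes tested 8.06% were, 6.02% up and 2.04% down. The median absolute log2 ratio was 0.82 for the 9 genes and 0.28 over all genes tested, while the signed medians were −0.15 and 0.02. XTH23 passed the filter on dim probes through ron3 alone and had to differ. The genes were also chosen with earlier results of these data known, so these counts and medians are a description.

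**Figure D1:**
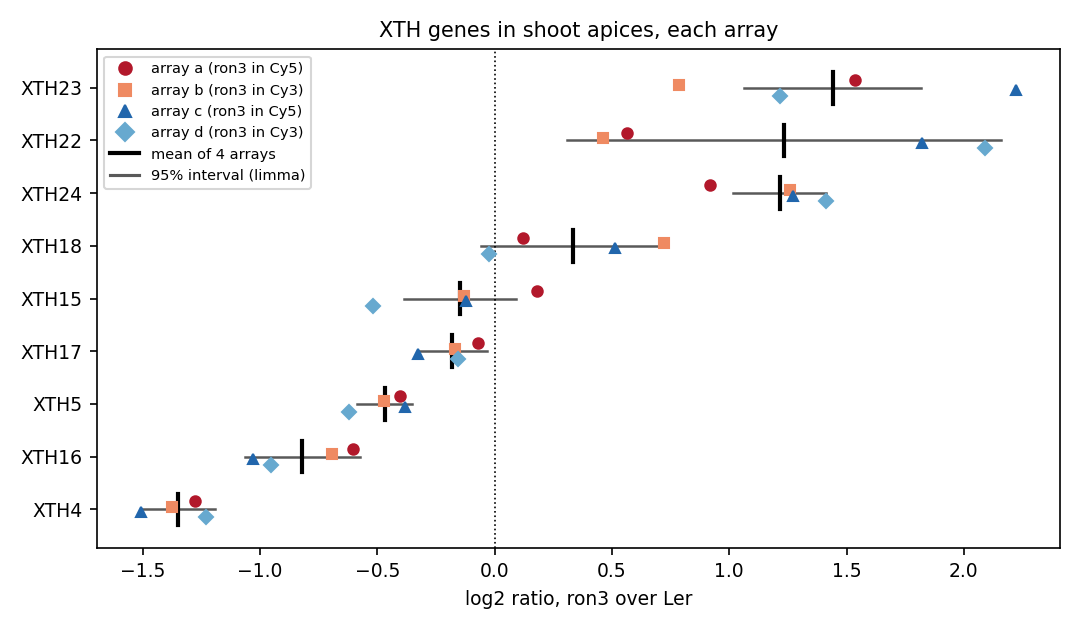
Log2 ratio of ron3 over Ler (x axis) for the 9 tested XTH genes (rows), with 1 symbol per array, a bar at the mean of the 4 arrays and a line for the 95% interval from limma. XTH23, XTH22 and XTH24 lie above 0 on every array, and XTH17, XTH5, XTH16 and XTH4 below 0 on every array.

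XTH4 (AT2G06850, chromosome 2), first described as the endoxyloglucan transferase EXGT-A1, had the largest fall. Its level, the background-corrected and normalised spot signal, was 7252, 6307, 6414 and 6966 intensity units in ron3 on arrays a to d, against 17570, 16370, 18240 and 16370 in Ler. The groups did not overlap, and every Ler value was more than 2 times every ron3 value.

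XTH4 had log2 ratios of −1.28, −1.38, −1.51 and −1.23 on arrays a to d, with a mean of −1.35 (95% interval −1.50 to −1.19), which is 2.55-fold lower in ron3 (limma, adjusted p = 0.000269). It lay at percentile 0.79 of all genes tested when ordered from the largest fall to the largest rise. XTH4 is also known from xylem. Of 9 vascular markers 6 fell and 0 rose, where 32.8% of all genes tested fell and 37.0% rose. The share called was 66.7%, against 69.8% over all genes. Their summed level, in which bright probes weigh most, was 18840 to 21880 in ron3 and 23670 to 25230 in Ler. The part of the vascular tissue in the fall of XTH4 was not tested.

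XTH5 (AT5G13870, chromosome 5), named endoxyloglucan transferase EXGT-A4, fell less. It had 250.1, 268.7, 257.9 and 236.7 units in ron3, against 330.7, 372.5, 335.9 and 364.2 in Ler. All ron3 values lay below all Ler values.

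XTH5 had log2 ratios of −0.40, −0.47, −0.38 and −0.62 on arrays a to d, a mean of −0.47 ± 0.11 (SD, n = 4; limma, adjusted p = 0.0011). With the log ratio from the scanner software, Feature Extraction, it was −0.80.

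XTH16 (AT3G23730, chromosome 3) and XTH15 (AT4G14130, chromosome 4) are known from stems and petioles that elongate in shade. XTH16 had 2860, 2896, 2409 and 2386 units in ron3, against 4342, 4677, 4920 and 4622 in Ler. The groups did not overlap, and in ron3 arrays a and b were higher than c and d. Its log2 ratios of −0.60, −0.69, −1.03 and −0.95 averaged −0.82 ± 0.21, or 1.77-fold lower in ron3 (SD, n = 4; limma, adjusted p = 0.00177).

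XTH15 had 201, 247.4, 185 and 167 units in ron3, against 177.6, 270.6, 201.4 and 239 in Ler. The groups overlapped, and ron3 was the higher one on array a only. Its log2 ratios of 0.18, −0.13, −0.12 and −0.52 averaged −0.15 with a 95% interval of −0.39 to 0.09 (limma, adjusted p = 0.203). The call depended on 1 array: without array b it passed the threshold, at −0.24 (adjusted p = 0.0476), while without array d it stood at −0.05.

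XTH17 (AT1G65310, chromosome 1) and XTH18 (AT4G30280, chromosome 4) belong to a closely related set known mainly from roots, where XTH18 has a part in primary root elongation. XTH17 was dim, with 115.4, 98.98, 123.9 and 98.64 units in ron3, against 121.3, 111.1, 155.4 and 109.8 in Ler. Its levels overlapped between groups, and ron3 was well above background on arrays a and c only, Ler on all 4.

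XTH17 was lower in ron3 on each array, at −0.07, −0.17, −0.33 and −0.16, with a mean of −0.18 ± 0.11 (SD, n = 4; limma, adjusted p = 0.0399). This call ended under several other settings, for example without background correction (−0.13, adjusted p = 0.0688) and without array c (−0.12, adjusted p = 0.178). With the Feature Extraction ratio the fall was larger, −0.75 (adjusted p = 0.00993).

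XTH18 had 605.8, 584.6, 692.9 and 343.9 units in ron3, against 557.2, 354.6, 485.8 and 350 in Ler. ron3 was higher on arrays a, b and c, and the groups overlapped. Its log2 ratios of 0.12, 0.72, 0.51 and −0.03 averaged 0.33 with a 95% interval of −0.06 to 0.72 (limma, adjusted p = 0.102). Without array d it was called, at 0.52 (adjusted p = 0.00967), and without array b it stood at 0.15 (adjusted p = 0.23).

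The mean of the tested root markers, given below, had the same order over the arrays as XTH18. Most single root markers did not have this order. IRT1 did, while FRO2 and SCR were highest on array d. XTH17, at −0.07, −0.17, −0.33 and −0.16, and XTH19, at −0.09, 0.38, −0.01 and 0.02 on arrays a to d, had other orders. Of 15 root markers 13 were tested, of which 9 rose and 1 fell (37.0% and 32.8% over all genes tested). The mean log2 ratio of the 13 was 0.46, 0.63, 0.51 and 0.06 on arrays a to d. RHD6 and EXPA7, root hair genes named after their values were seen, were well above background in ron3 alone and had to be high there to be tested. Without both, 7 of 11 root markers rose and 1 fell, with means of 0.46, 0.64, 0.51 and 0.07, a comparison chosen after seeing the data. MYB36, still among the 7, was well above background in Ler on 1 array only. It thus also passed the filter on dim probes through ron3 alone. The summed level of the 13, in which bright probes weigh most, was 6670 to 7963 units in ron3 and 5820 to 6022 in Ler. PLT1 and PLT2, which define the root meristem, were not well above background on any array. The marker with the highest ratio was the iron transporter IRT1, at 1.43 ± 0.51, and the lowest was SHR, at −0.20 ± 0.06 (SD, n = 4). Another probe of IRT1, at a mean log2 ratio of 0.11, was not well above background in either genotype on any array. The part of the root markers in the values of XTH17 and XTH18 was not tested.

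XTH22 (TCH4, AT5G57560, chromosome 5), known to be induced by touch, brassinosteroid and auxin, was the most variable of the genes. It had 1376, 1124, 3238 and 2605 units in ron3, against 929.8, 817.2, 916.2 and 612.5 in Ler. The groups did not overlap. In ron3 arrays c and d were well above a and b, a split that the Ler values did not show.

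XTH22 had log2 ratios of 0.57, 0.46, 1.82 and 2.09 on arrays a to d, with a mean of 1.23 (95% interval 0.31 to 2.16), or 2.35-fold higher in ron3 (limma, adjusted p = 0.0305). Arrays a and b averaged 0.51 and arrays c and d 1.96. That gap of 1.44 lay at percentile 99.9 of the absolute gaps over all genes tested, whose median was 0.07. The ratio was above 0 on 4 of 4 arrays, and the mean stayed above 0 under each of the 14 other settings, but the call ended when array c was left out (0.92, adjusted p = 0.113), when array d was left out (0.83, adjusted p = 0.0511) and with the Feature Extraction ratio (1.29, adjusted p = 0.0541).

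XTH23 (XTR6, AT4G25810, chromosome 4) was detected in ron3 only. It had 260.4, 124.1, 435 and 188.3 units in ron3, well above background on all 4 arrays, against 89.87, 72.03, 93.22 and 80.96 in Ler, not well above background on any. The groups did not overlap, and array c was the highest in both genotypes.

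XTH23 was 2.67-fold higher in ron3 than a bound for Ler. On each array the bound was the higher of the gene's own Ler signal and the lowest Ler signal that counted as detected. The gene passed the filter on dim probes through ron3 alone, so its call against the measured Ler signal (limma, adjusted p = 0.00123) is a description. Its geometric mean level was 226.8 in ron3, with 84.87 as the bound in Ler and 83.61 as the signal measured there. Against the background signal of Ler the log2 ratios were 1.54, 0.79, 2.22 and 1.22 on arrays a to d. They averaged 1.88 on arrays a and c, with ron3 in Cy5, and 1.00 on b and d, with ron3 in Cy3. With the Feature Extraction ratio the mean was 3.49, against 1.44 here.

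XTH24 (MERI-5, AT4G30270, chromosome 4), first cloned from meristematic tissue and also known as the senescence gene SEN4, rose most evenly. It had 6441, 4509, 5924 and 4848 units in ron3, against 3412, 1884, 2453 and 1821 in Ler. The groups did not overlap, and array a had the highest value in both genotypes.

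The log2 ratios of XTH24 on arrays a to d, 0.92, 1.26, 1.27 and 1.41, had a mean of 1.22 ± 0.21 (SD, n = 4; limma, adjusted p = 0.000444), or 2.32-fold higher in ron3. XTH4, XTH5, XTH16 and XTH24 were called in the same direction under each of the 14 other settings. These ran from leaving out any array to the values of the authors, and were not independent. The authors' values nearly equal the Feature Extraction ratio, and the mean of probes does not move genes with 1 probe.

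XTH25 (XTR3, AT5G57550, chromosome 5) remained near the background. It had 108.1, 87.26, 99.43 and 96.25 units in ron3, against 70.73, 69.07, 77.04 and 81.57 in Ler, and only the ron3 value of array a was well above background. Both genotypes are therefore given without a fold change.

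**Figure D2:**
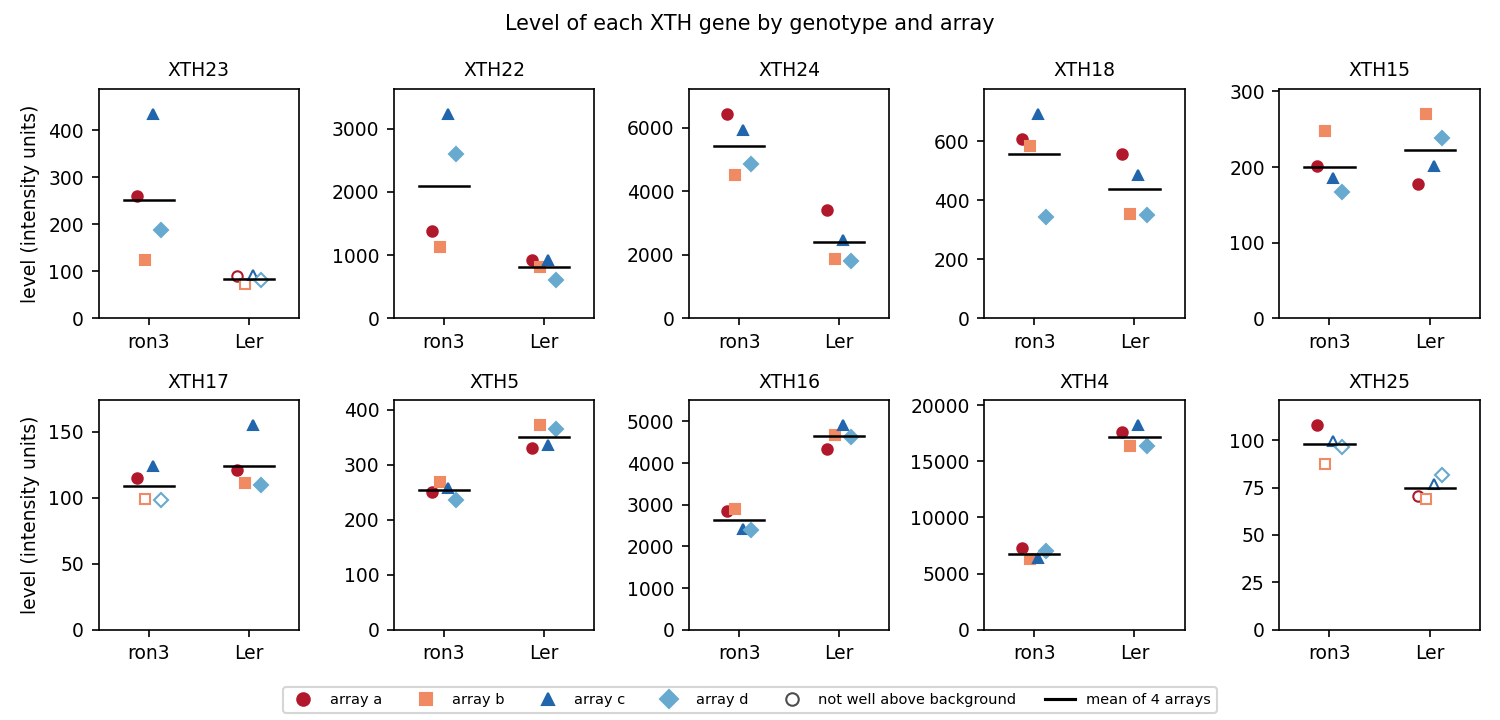
Level of each of the 10 XTH genes in intensity units (y axis, from 0, with its own scale for each gene) in ron3 and Ler, with 1 symbol per array, a line at the mean of the 4 arrays and open symbols for spots not well above background. The ron3 and Ler symbols are apart for XTH23, XTH22, XTH24, XTH5, XTH16 and XTH4 and intermingle for XTH18, XTH15 and XTH17, while XTH25 is nearly all open symbols.

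The levels of ron3 and Ler did not overlap for 6 of the 9 tested genes, where 54.9% of all genes tested were apart in this way. Ordered by their mean log2 ratio, the genes detected in both genotypes ran XTH22, XTH24, XTH18, XTH15, XTH17, XTH5, XTH16 and XTH4. XTH23 has no fixed place in this order, since its Ler signal was not well above background on any array. The ratios on the single arrays overlapped between XTH22 and XTH24, between XTH18 and XTH15, between XTH15 and XTH17, and between XTH5 and XTH16. They were apart between XTH24 and XTH18, between XTH17 and XTH5 and between XTH16 and XTH4.

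Several of the genes are direct neighbours in the genome (gene order of assembly TAIR10.1). XTH24, XTH18 and XTH19 stand in a row on chromosome 4, with log2 ratios of 1.22, 0.33 and 0.07, of which only XTH24 was called. XTH25 and XTH22 are neighbours on chromosome 5, the first near background and the second at 1.23. XTH23 stands next to XTH14 on chromosome 4, and both were called up. Both passed the filter on dim probes through ron3 alone, so their shared direction was set by the filter. Transcripts of such similar genes may bind each other's probes, so the separate values of XTH17, XTH18 and XTH19 and of XTH23 and XTH14 are uncertain.

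**Figure D3:**
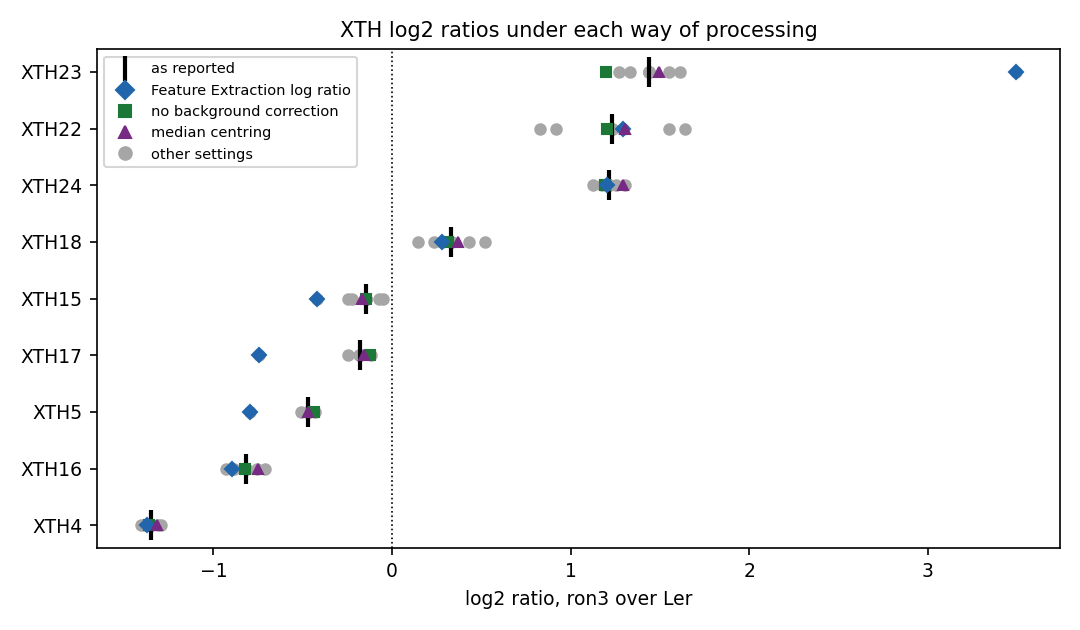
Log2 ratio of ron3 over Ler (x axis) for the 9 tested XTH genes (rows) under each way of processing, with a bar for the value as reported and symbols for the other settings. XTH4, XTH16 and XTH24 stay close to the bar, XTH22 spreads from 0.83 without array d to higher values, and the Feature Extraction ratio moves XTH23 to 3.49, XTH17 to −0.75 and XTH5 to −0.80.

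The other 23 genes of the family, known from the reference by an XTH name, held more falls than rises. Of the 17 tested 4 rose, 9 fell and 4 were not called, where 37.0% of all genes tested rose and 32.8% fell. Their median log2 ratio was −0.27 (0.02 over all genes tested). Of the rises 3, XTH11, XTH12 and XTH14, were well above background in ron3 alone and, with XTH21, were tested only because ron3 was high. Without these 4 genes 1 of 13 rose and 9 fell, a count chosen after seeing the data. The number of rises also depended on single arrays, with 2 without array a, 2 without array c and 6 without array d, while 8 genes fell in each case. Those that changed at least 2-fold were XTH8 at −1.44 ± 0.23, XTH7 at −1.20 ± 0.23, XTH6 at −1.16 ± 0.16 and XTH14 as the only rise (SD, n = 4; limma, adjusted p of 0.000349, 0.000665, 0.000482 and 0.0134). XTH8 thus lay below XTH4 as the lowest of all XTH genes tested.

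XTH14, known from roots, had log2 ratios of 1.94, 1.54, 1.84 and −0.11 on arrays a to d, and was well above background in ron3 on 3 arrays and in Ler on none. Over the 4 arrays the mean was 2.46-fold higher in ron3, measured against a Ler signal that did not count as detected. The call ended without array a (1.28, adjusted p = 0.0585) and without array c (1.33, adjusted p = 0.053), and without array b the log2 ratio was 0.89. With the Feature Extraction ratio it was 3.60. On array d, where the ratio of XTH14 lay below 0, the root marker mean was 0.06. The part of the root markers in the values of XTH14 was not tested.

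Smaller falls were found for XTH27 at −0.81 ± 0.12, XTH33 at −0.64 ± 0.15, XTH28 at −0.39 ± 0.05 and XTH31 at −0.37 ± 0.10 (SD, n = 4; limma, adjusted p of 0.000661, 0.00104, 0.00156 and 0.00143). XTH33 fell by more than 2-fold, at −1.48, with the Feature Extraction ratio and with the authors' values. XTH31 is known to hydrolyse xyloglucan rather than rejoin it. The 4 genes that were not called were XTH21 at 0.45, XTH30 at 0.08, XTH19 at 0.07 and XTH13 at −0.03, named after their values were seen. XTH21, a root gene not well above background in Ler on any array, had 0.50, 0.80, 0.64 and −0.13 on arrays a to d. These ratios, against that background signal, had the same order over the arrays as the mean of the root markers. XTH17 and XTH19 had other orders. The part of the root markers in the values of XTH21 was not tested. The value of XTH21 is limited by the background. It passed the threshold under 6 of 13 other settings and stood at 1.96 (limma, adjusted p = 0.0866) with the Feature Extraction ratio.

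**Figure D4:**
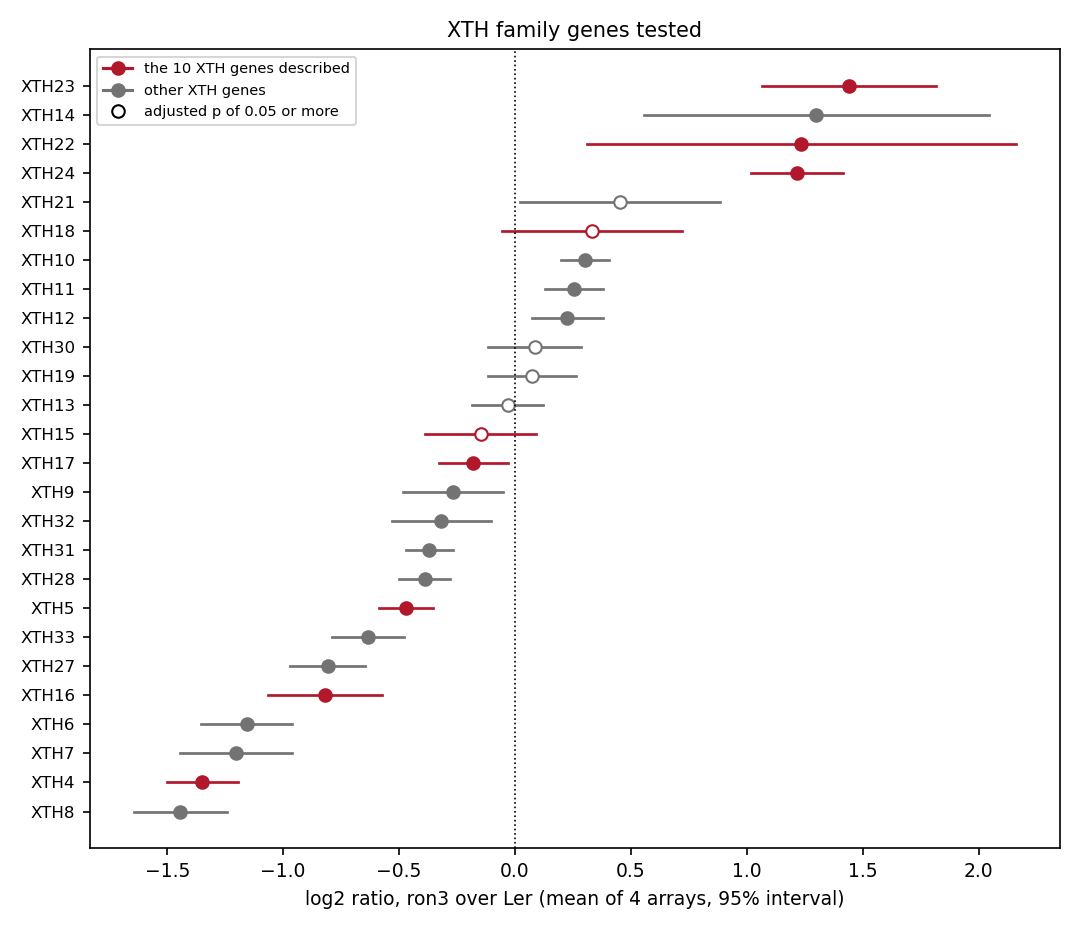
Mean log2 ratio of ron3 over Ler with its 95% interval (x axis) for the 26 XTH genes tested (rows), the genes described here in red, the other members of the family in grey and open circles where the adjusted p was 0.05 or more. XTH23, XTH14, XTH22 and XTH24 stand apart at the top, between 1.22 and 1.44, and XTH6, XTH7, XTH4 and XTH8 at the bottom, between −1.16 and −1.44. The ratios of XTH23, XTH14, XTH21, XTH11 and XTH12 are against a Ler signal not well above background.

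The enzymes that make and trim xyloglucan, the substrate of the XTH enzymes, were mostly lower. Of 17 genes, all tested, 11 fell and 3 rose, where 32.8% of all genes fell and 37.0% rose, and their median log2 ratio was −0.22 (0.02 over all genes tested). The 3 trimming enzymes, which remove sugars from xyloglucan in the wall, all fell: the galactosidase BGAL10 by 1.09 ± 0.09, the xylosidase XYL1 by 0.91 ± 0.06 and the fucosidase AXY8 by 0.80 ± 0.11 on the log2 scale (SD, n = 4; limma, adjusted p of 0.000219, 0.000278 and 0.000312).

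Of the 14 synthesis genes 8 fell and 3 rose. XXT1, which adds xylose to the backbone, fell by 0.84 ± 0.06 and the galactosyltransferase gene XLT2 by 0.76 ± 0.13. The 3 that rose, named after their values were seen, were FUT1, which adds fucose, at 0.63 ± 0.07, the galactosyltransferase gene MUR3 at 0.47 ± 0.07 and XXT5 at 0.18 ± 0.08 (SD, n = 4). The call of XXT5 ended without array a, c or d, at 0.15 to 0.21 (adjusted p of 0.0534 to 0.121). XLT2, MUR3 and FUT1 act on the side chains, and their ratios went in both directions.

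XTH22 belongs to the TCH set of touch genes. The other 3 rose, where 37.0% of all genes tested did. They were CML12 (TCH3), a calmodulin-like protein, at 3.64 ± 0.16, calmodulin CAM2 (TCH1) at 0.55 ± 0.09 and CML24 (TCH2) at 0.28 ± 0.17 (SD, n = 4; limma, adjusted p of 0.000137, 0.000783 and 0.0215). CML12 had 3.57, 3.56, 3.87 and 3.54 on arrays a to d, so that arrays a and b did not stand below c and d as they did for XTH22. CAM2 shares near-identical copies elsewhere in the genome, so its value is uncertain. CML24 lost its call with the Feature Extraction ratio (0.24, adjusted p = 0.0689), without array a (0.30, adjusted p = 0.0752) and without array c (0.26, adjusted p = 0.1).

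**Figure D5:**
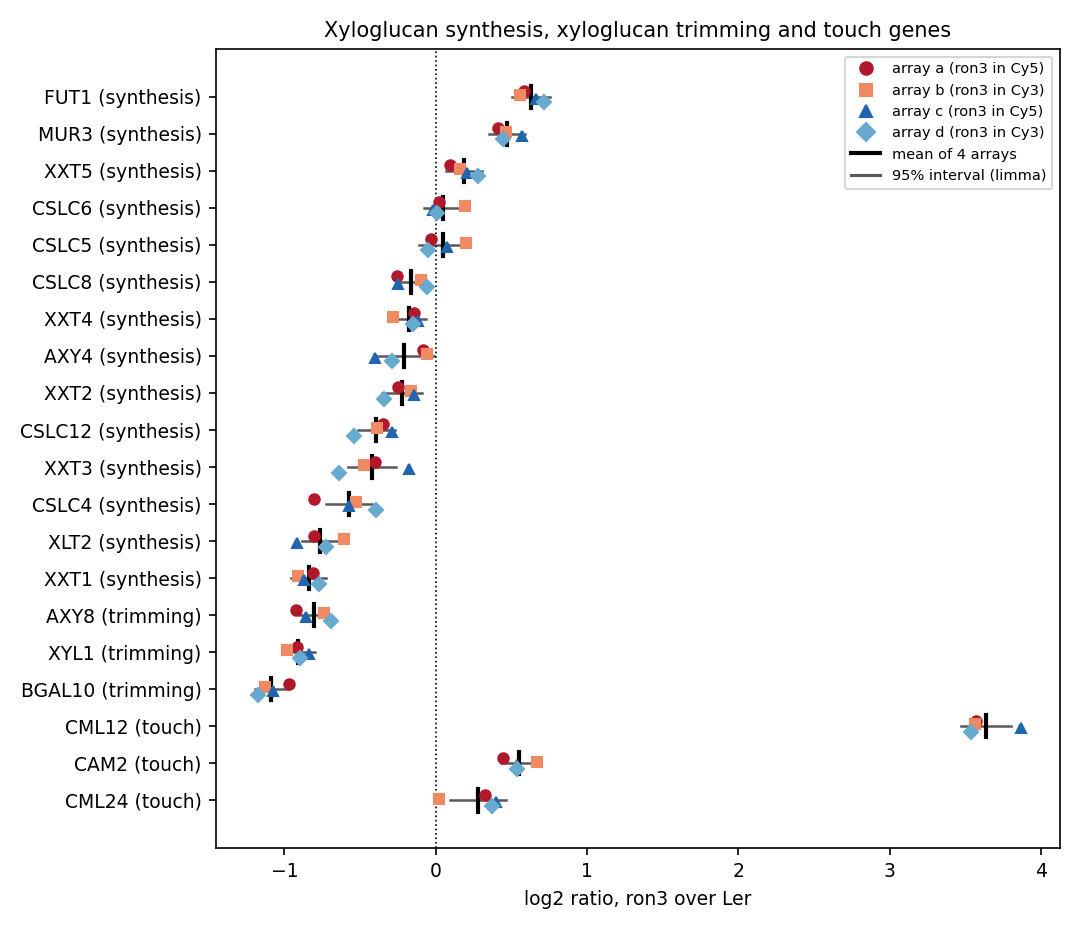
Log2 ratio of ron3 over Ler (x axis) for 14 xyloglucan synthesis genes, 3 trimming genes and 3 touch genes (rows), with 1 symbol per array, a bar at the mean of the 4 arrays and a line for the 95% interval from limma. The trimming genes lie between −0.80 and −1.09, and CML12 stands alone at 3.64.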

How the data were processed

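RNA from shoot apices of ron3 and Ler was hybridised to 4 two-colour arrays. Per the labels' protocols, labelled RNA was made from cDNA by in vitro transcription. Agilent Feature Extraction 10.1.1.1 read the scans, per the file headers. The deposited columns used were the median intensity of each spot and of its local background, a log10 ratio of Cy5 over Cy3 after the software's own processing, and other flags of 0 or 1 per spot. The authors also deposited a table of log2 ratios of the processed signals, turned to ron3 over Ler and not centred, with medians of −0.01, −0.12, 0.01 and −0.17 on arrays a to d.

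Signals were corrected with normexp (offset 50) and loess in limma 3.58.1 under R 4.3.3. Levels were further scaled between arrays (Aquantile), are open to dye bias and are comparable only within a probe. A probe was kept if ron3 or Ler was well above background on 2 or more arrays and 3 or more spots were unflagged, and the brightest probe stood for its gene. A linear model with a dye effect per probe (2 residual and 2.45 prior degrees of freedom) was fitted to all 19246 genes, two-sided, with Benjamini-Hochberg adjustment at 0.05. The fit was tested on simulated data. The dye effect passed for 0 genes (limma), and 2208 had an unadjusted p under 0.05. All arrays had median Cy3 signals of 129.5 to 164 and Cy5 signals of 148 to 222. Their number limits the precision.

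The genes and lists were chosen with earlier results of these data known. Named outside the 10 genes were, by rule, those past the threshold at 2-fold and up to 4 more per list with the smallest p. XTH numbers come from the reference table of TAIR10.1. Alternatives were leaving out the dye effect or the background correction, using the Feature Extraction log ratio or the authors' values, median centring, other filters, the mean of probes, another moderation, arrays averaged in pairs and leaving out each array.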

Additional observations from a re-analysis of the deposited data

How the results depend on the processing

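The counts of genes called stayed within 1.5 times under each of the 14 alternatives: 5 to 8 of the XTH genes described, 10 to 15 other XTH genes (of these 1 to 6 rises), 10 to 15 xyloglucan genes, 2 or 3 touch genes and 10013 to 13488 of all genes. The median of all genes lay between −0.04 and 0.06 on the log2 scale. Among the 10 genes, XTH4, XTH5, XTH16 and XTH24 kept their call under all 14. XTH23 kept its call under the 13 that could test it, but passed the main filter through ron3 alone. XTH17 lost its call under 6 of 13 settings and XTH22 under 6 of 14, including other moderation (−0.18, adjusted p = 0.0545, and 1.23, adjusted p = 0.0522), while XTH18 gained one under 3, among them arrays averaged in pairs (adjusted p = 0.0148). The log ratio of Feature Extraction moved XTH15 to −0.42, besides the genes for which the report gives it. Genes near 0 changed sign: XTH30 stood at −0.017 with that log ratio and −0.017 with the authors' values. Leaving out 1 array gave −0.091 to 0.027 for XTH13 and −0.015 to 0.164 for XTH19. The causes of these changes were not tested. Signal over background limits XTH14, XTH17, XTH21, XTH23 and XTH25.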

Other observations

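The numbers of the XTH genes follow the family tree, and the 3 numbered blocks had different counts, grouped in this way after the values were seen and given without a test. Of the 8 tested genes from XTH1 to XTH11, which include XTH4 and XTH5, 6 fell and 2 rose, with a median log2 ratio of −0.81. The 2 rises in that block included XTH11, which passed the filter on dim probes through ron3 alone. The 12 tested from XTH12 to XTH26 include XTH15 to XTH18 and XTH22 to XTH24. Of these 12 genes 5 rose and 2 fell, with a median of 0.28, and 4 were not well above background in Ler on any array. These 4 were XTH12, XTH14, XTH21 and XTH23. All but XTH21 are among the 5 rises and were tested only because ron3 was high. The counts and medians of the blocks thus rest in part on the filter. Of the 6 tested from XTH27 to XTH33 5 fell and 0 rose, with a median of −0.38. Over all genes tested the median was 0.02, and 37.0% rose and 32.8% fell.

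XTH22 had the largest gap between arrays a and b and arrays c and d among the 9 tested XTH genes. XTH16 averaged −0.65 on a and b and −0.99 on c and d, and XTH15 0.02 and −0.32, both at percentile 95.1 of the absolute gaps over all genes. XTH24 averaged 1.09 and 1.34 (percentile 91.9), and XTH18 0.42 and 0.24 (percentile 84.8). The gap of XTH4 lay at percentile 33.1, that of XTH5 at 47 and that of XTH17 at 72. XTH23 had a gap of 0.56 (percentile 97.8), measured against a Ler signal not well above background.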
